A study of Danio rerio with 24 samples.

Results

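The p53 and growth arrest genes described here are mdm2, ccng1, ccng2, cdkn1a, gadd45aa and btg2. Members were all probe sets that the platform annotation assigns to these 6 listed genes, which gave 7 probe sets for 5 genes among the 15617 probe sets of the table. The genes were chosen with earlier results of these data known. Counts of members beside shares of all probe sets are therefore no test of the set. The 2 tested probe sets of ccng2 are called probe set 1 and probe set 2 below. Of the 7, 6 reached a log2 signal of at least 4 on at least 3 arrays and were tested, as were 10140 probe sets in all. The seventh, the second probe set of btg2, stayed between 2.26 and 3.14 on all 24 arrays and was not tested. Probe sets of cdkn1a, which encodes the Cdk inhibitor p21, were not analysed here.

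RNA came from the regenerating caudal fin of wild-type zebrafish (Danio rerio) and was hybridised to 24 Affymetrix arrays. There were 3 arrays for each of 8 groups, which were metabolic memory fins at 0, 12, 24 and 48 h after amputation and control fins at 0, 12, 24 and 48 h. Memory fish had been injected with streptozocin, which kills the beta cells that make insulin, as a 0.3% solution in citrate buffer at a dose of 350 mg/kg. Injections began on day 1 and were repeated on days 3, 5 and 12, and the last was on day 19. The fish then spent 60 days without the drug, so that a past diabetic state could be compared with no such past. Control fish are called untreated in one label, while the treatment protocol gives them an equal volume of citrate buffer. The labels speak of triplicates and of 15 fins for each time and do not say whether the replicates were separate fish, so the p-values may measure technical spread only. No blood glucose value was used here, so the model rests on the labels.

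The p53 protein is a transcription factor that is stabilised after DNA damage and other stress and switches on genes that halt the cell cycle, repair DNA or kill the cell. Its own target Mdm2 is a ubiquitin ligase that marks p53 for breakdown, so that the pathway limits itself. Amputation of a zebrafish fin is followed by wound closure and then by a blastema, a mass of dividing cells that regrows the lost part.

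The members fill different positions in this pathway. Mdm2 is the feedback inhibitor, cyclin G1 (ccng1) is a p53 target that recruits a phosphatase to Mdm2 in mammals, and Gadd45aa belongs to the family of stress sensors that slow the cycle at the G2 to M step. Cyclin G2 (ccng2) is an atypical cyclin that rises in resting and arresting cells and is switched on by FoxO factors in mammals. Btg2 is an antiproliferative adaptor of the Ccr4-Not complex, which shortens the poly(A) tails of mRNA, and is a p53 target in mammals. All values below are log2 GCRMA signals of a probe set, and differences are in log2 units ± standard error (SE) from limma's moderated test. A probe set is said to have risen or fallen only where its Benjamini-Hochberg adjusted p over all 10140 tested probe sets was under 0.05. Shares of all probe sets called use this adjusted threshold. No share was computed at an unadjusted p under 0.05. Signals of different probe sets are not set against each other.

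Arrays of 1 group correlated at 0.978 to 0.996, and no 2 arrays held identical values. The array's hybridisation controls lay between 9.53 and 9.93 on all arrays of 0 and 12 h and between 9.13 and 9.47 on all arrays of 24 and 48 h, in both arms, so that this step cannot be told apart from time in comparisons across it. The fin epidermis was represented on all arrays, with group means of 13.55 to 14.62 for the keratin gene krt4. A bulk fin sample cannot separate fewer cells of a type from less RNA per cell.

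Before amputation no member was called different between memory and control fins. At 0 h none of the 6 tested probe sets was called by limma, against a background of 5.52% of all tested probe sets called in either direction, and 1 had an unadjusted p under 0.05. That 1 was gadd45aa, with 6.83, 6.78 and 6.48 in memory fins, against 7.06, 7.22 and 7.38 in control fins. All 3 memory arrays lay below all 3 control arrays, as for 10% of all probe sets at 0 h. The difference of -0.53 ± 0.21 had an adjusted p of 0.151. The 95% intervals of the differences at 0 h ran from -1.01 to 0.74 for btg2, from -0.34 to 0.06 for ccng1 and from -0.55 to 0.39 for mdm2. For ccng2 they ran from -0.64 to 0.27 at probe set 1 and from -0.86 to 0.38 at probe set 2.

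**Figure D1:**
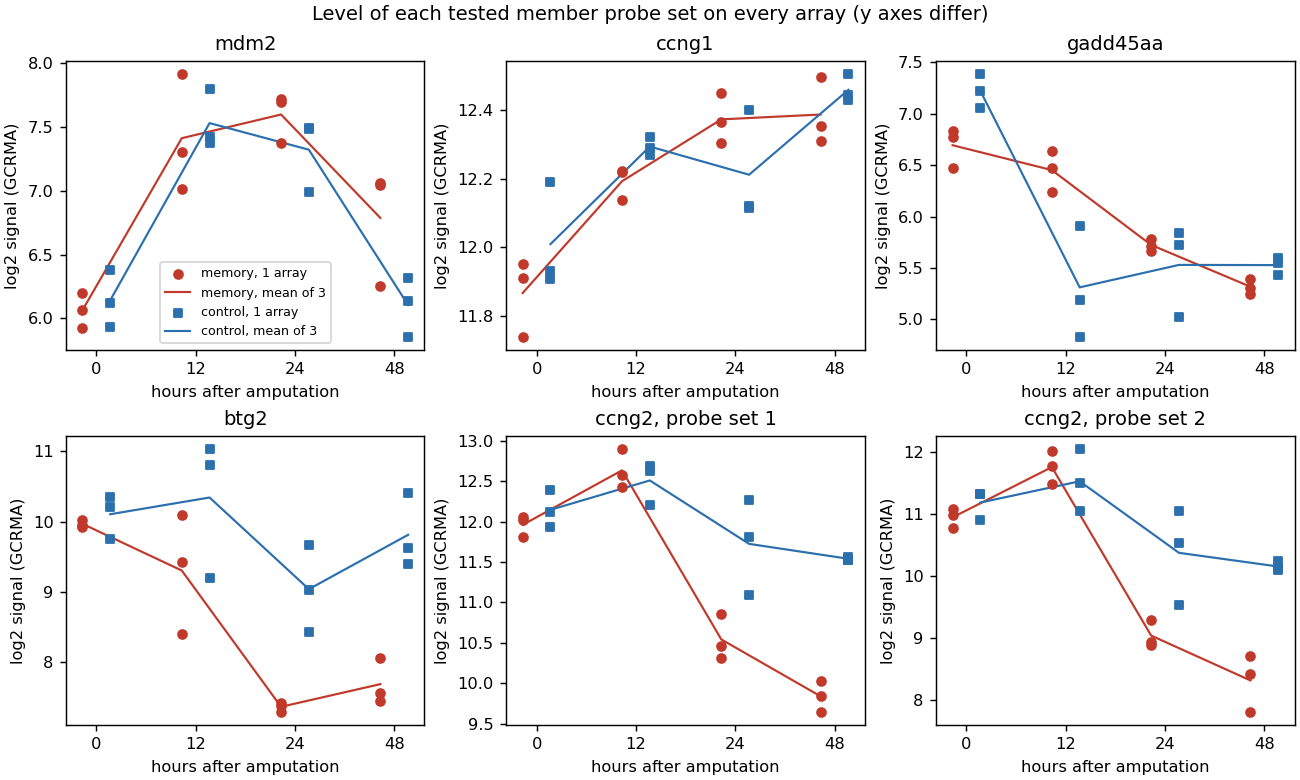
Log2 GCRMA signal (y axis) of the 6 tested member probe sets at 0, 12, 24 and 48 h after amputation (x axis), 1 panel for each probe set. Points are single arrays, memory left of control at each time, lines join the means of 3 arrays, times are equally spaced and the y axes differ. The memory points of btg2 and of both ccng2 probe sets lie below all control points at 24 and 48 h, and those of gadd45aa lie above all control points at 12 h.

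At 48 h, when the blastema is growing, btg2 and ccng2 were lower in memory fins than in control fins, while mdm2, ccng1 and gadd45aa were not called. The signals of btg2 were 8.05, 7.57 and 7.44 in memory fins, against 10.41, 9.63 and 9.40 in control fins. Every memory array was thus more than 1 log2 unit below every control array. The difference was -2.13 ± 0.42, which is 4.36-fold lower in memory fins (adjusted p = 0.0063, limma). Group means were 7.69 ± 0.32 in memory fins and 9.81 ± 0.53 in control fins (SD, n = 3 each).

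Probe set 1 of ccng2 read 10.02, 9.84 and 9.65 in memory fins at 48 h, against 11.53, 11.56 and 11.53 in control fins. The groups did not overlap, and the control arrays lay close together. The arrays of 31.3% of all probe sets stood apart between the arms at 48 h. The difference was -1.70 ± 0.22, or 3.25-fold lower (adjusted p = 2.29e-04). Probe set 2 of ccng2 read 8.71, 8.43 and 7.81 in memory fins, against 10.13, 10.10 and 10.24 in control fins, a difference of -1.84 ± 0.30 or 3.58-fold lower (adjusted p = 0.00156). Both probe sets thus gave the same direction on all arrays, and as they read 1 gene they are not independent. With btg2 they made 3 of 6 members lower and 0 of 6 higher at 48 h, beside 2.94% of all probe sets lower and 2.75% higher. The 3 stand for btg2 and ccng2 alone, and the members were chosen with earlier results of these data known. Leaving out any 1 of the 24 arrays kept between 3 and 4 of the 6 members called at 48 h, with all 3 of these among them. The fourth was mdm2.

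At 24 h the same 3 probe sets were lower in memory fins. The signals of btg2 were 7.38, 7.30 and 7.42 in memory fins, against 9.67, 9.02 and 8.43 in control fins, with the memory arrays close together and the control arrays spread over more than 1 unit. The difference was -1.67 ± 0.42 (3.19-fold lower, adjusted p = 0.0305). Probe set 1 of ccng2 read 10.46, 10.31 and 10.86 in memory fins, against 12.26, 11.81 and 11.09 in control fins, a difference of -1.18 ± 0.22 (2.27-fold lower, adjusted p = 0.00693). In that probe set control replicate 3 was the closest to the memory arrays, and no array crossed over. The arrays of 28.9% of all probe sets stood apart between the arms at 24 h. Probe set 2 read 8.89, 8.94 and 9.29 in memory fins, against 11.06, 10.54 and 9.53 in control fins, a difference of -1.34 ± 0.30 (adjusted p = 0.0173). So 3 of 6 members were lower at 24 h, beside 1.90% of all probe sets.

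The calls at 24 h were less firm than those at 48 h. The count of called members dropped to 0 without control 24 h replicate 1, and to 1 without control 24 h replicate 2, memory 24 h replicate 2 or memory 24 h replicate 3. In those same fits the count over all probe sets was 43, 52, 92 and 55, against 343 on all arrays. In a fit on only the 2 groups compared, btg2 was the 1 member called at 24 h, while btg2 was not called without the filter on low signals (adjusted p = 0.0596) or without moderation of the variances (adjusted p = 0.0666).

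Markers of other cells were read beside these differences. Of the 7 measured epidermis markers, 0 were called by limma at 24 h, with 2 at an unadjusted p under 0.05, and 1 was higher at 48 h, tp63. Their summed linear signal was 98290 to 100400 in memory fins and 103500 to 105600 in control fins at 24 h. At 48 h that sum was 72690 to 81520 in memory fins and 78270 to 82910 in control fins. None of 7 neutrophil and macrophage markers was called by limma at 24 or 48 h, where 1 of them at each time had an unadjusted p under 0.05. Their sums at 48 h were 2140 to 2560 in memory fins and 1792 to 2036 in control fins. Of these sums mmp13a, with group means of 10.61 in memory fins and 10.27 in control fins, was the main part. The genes mpx and lyz, which define neutrophils, had group means under 4 in all groups after amputation. Blood rests on 1 measured gene of 5, the alpha globin gene hbaa1, whose linear signal at 24 h was 296 to 1437 in memory fins and 67.9 to 177 in control fins, and which was not called. At 48 h it was 83.0 to 523 in memory fins and 55.8 to 155 in control fins. The 3 osteoblast markers summed to 316 to 405 in memory fins and 474 to 528 in control fins at 24 h, and to 9971 to 11390 in memory fins and 11210 to 12970 in control fins at 48 h. The main part was col10a1a, with group means at 48 h of 13.25 in memory fins and 13.48 in control fins. The part of blood, bone or epidermal cells in the lower btg2 and ccng2 signals was not tested.

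At 12 h the member that differed was gadd45aa. It read 6.48, 6.64 and 6.24 in memory fins, against 4.83, 5.91 and 5.19 in control fins. All memory arrays lay above all control arrays, as for 20.1% of all probe sets at 12 h. The difference was 1.14 ± 0.21, or 2.20-fold higher (adjusted p = 2.81e-04). This was 1 of 6 members, at a time when 15.5% of all probe sets were higher and 20.7% lower in memory fins, so the members' share was near the background. The direction of this background turned with arrays centred on their median, where 53.3% of called probe sets were higher in place of 42.8%. The call held with each array left out, with adjusted p-values up to 0.00276. At the same time the 7 neutrophil and macrophage markers summed to 6790 to 9317 in memory fins and 1634 to 1723 in control fins, of which mmp13a, at 12.78 in memory fins and 9.73 in control fins, was the main part. Of the 7 epidermis markers 2 were higher in memory fins at 12 h (list median 0.19) and 3 in the change from 0 to 12 h (list median 0.27), and their sums at 12 h were 93520 to 98720 in memory fins and 81160 to 96550 in control fins. The part of either cell type in the gadd45aa difference was not tested.

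The 12 h signals of btg2 overlapped between the arms, with 10.10, 9.42 and 8.40 in memory fins, against 10.80, 11.03 and 9.20 in control fins. Both arms had their lowest value in replicate 3. The difference was -1.04 ± 0.42 (adjusted p = 0.0585), and it passed the threshold without control 12 h replicate 3 (-1.61, adjusted p = 0.00254) or memory 12 h replicate 1 (-1.43, adjusted p = 0.0155). The differences of ccng2 at 12 h were 0.13 ± 0.22 (probe set 1) and 0.23 ± 0.30 (probe set 2), with overlapping arrays.

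The feedback inhibitor mdm2 was not called between the arms at any time. At 48 h it read 7.06, 7.05 and 6.26 in memory fins, against 6.13, 5.86 and 6.32 in control fins. Memory replicates 1 and 2 stood above all control arrays, and replicate 3 fell among them. The difference was 0.68 ± 0.23, with a 95% interval of 0.21 to 1.16 and an adjusted p of 0.0783, and it passed the threshold without memory 48 h replicate 3 (0.95, adjusted p = 0.0295) or without memory 12 h replicate 3 (0.68, adjusted p = 0.0491). At 12 h the difference of mdm2 was -0.12 ± 0.23 and at 24 h 0.28 ± 0.23.

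The cyclin gene ccng1 varied least of the tested members and was not called between the arms at any time. Its signals ran from 11.74 to 12.50 over all 24 arrays, and its 8 group means spanned 0.59, against 1.54 for mdm2, 1.91 for gadd45aa, 2.80 and 3.44 for the 2 probe sets of ccng2 and 2.98 for btg2. The 95% intervals of its difference between memory and control fins were -0.30 to 0.10 at 12 h, -0.04 to 0.36 at 24 h and -0.27 to 0.13 at 48 h. For gadd45aa the intervals were -0.25 to 0.63 at 24 h and -0.65 to 0.23 at 48 h.

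**Figure D2:**
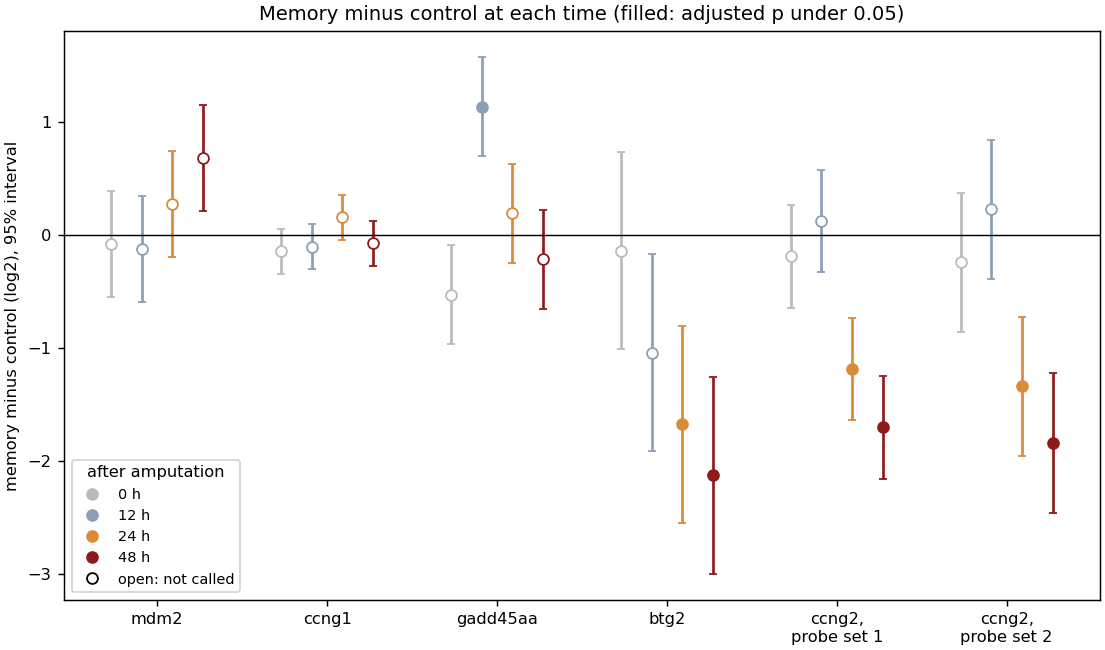
Difference between memory and control fins (log2, y axis) of the 6 tested member probe sets (x axis) at 0, 12, 24 and 48 h from left to right, with 95% intervals from limma. Filled points passed an adjusted p under 0.05. The btg2 and ccng2 differences are near 0 in the uncut fin and negative at 24 and 48 h, gadd45aa is positive at 12 h, and ccng1 stays near 0.

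Averaged over the 4 times, btg2 differed by -1.24 ± 0.21 (adjusted p = 1.89e-04) and ccng2 differed by -0.74 ± 0.11 (probe set 1, adjusted p = 6.19e-05) and -0.80 ± 0.15 (probe set 2, adjusted p = 4.73e-04). These 3 of 6 compare with 16.8% of all probe sets lower on average. In the same average 6 of the 7 neutrophil and macrophage markers were higher in memory fins (list median 0.37), and their part in the lower signals was not tested. Of the 7, mpx had a group mean over 4 only in memory fins at 0 h (5.38). The average hides the times, so the change of the difference from that in the uncut fin was tested as an interaction.

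The difference of ccng2 between the arms at 48 h was larger than at 0 h. The change was -1.51 ± 0.31 for probe set 1 (adjusted p = 0.00912) and -1.60 ± 0.42 for probe set 2 (adjusted p = 0.0332), and 2 of 6 members were called lower, beside 2.35% of all probe sets. In the uncut fin 3 of the 7 neutrophil and macrophage markers were higher in memory fins (list median 0.54), and 2 of 7 were called lower in the change to 48 h (list median -0.52). Of these markers mpx had a group mean over 4 only in memory fins at 0 h (5.38). After amputation mpx and lyz were under 4 in all group means, so the sizes of their changes are uncertain. These counts are thus no test of cell content. The part of these cells in the change was not tested. For probe set 1 the call held with any 1 array left out (adjusted p up to 0.0273). For probe set 2 the adjusted p was 0.0523 to 0.0880, and so above the threshold, on removal of control 0 h replicate 1 or 2, memory 0 h replicate 1 or 3, any 1 of the 3 control 48 h arrays, or memory 48 h replicate 2 or 3. It was 0.0565 without the filter on low signals and 0.0673 without moderation of the variances. The change of btg2 was -1.99 ± 0.59 (95% interval -3.22 to -0.76), with an adjusted p of 0.0594. It passed the threshold without control 12 h replicate 2 or 3, control 48 h replicate 3, or memory 12 h replicate 1 or 3, with adjusted p-values of 0.0215 to 0.0495. The changes of the others to 48 h were not called, with 0.76 ± 0.32 for mdm2 (adjusted p = 0.182), 0.32 ± 0.30 for gadd45aa and 0.07 ± 0.13 for ccng1.

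At 24 h no member's change from 0 h was called by limma, beside 2.50% of all probe sets called. Of the 6, 5 had an unadjusted p under 0.05, with both probe sets of ccng2 among them. The share of all probe sets at that looser threshold was not computed. The changes were -0.996 ± 0.31 (probe set 1, adjusted p = 0.0866) and -1.10 ± 0.42 (probe set 2, adjusted p = 0.172) for ccng2 and -1.54 ± 0.59 for btg2 (adjusted p = 0.174), 0.72 ± 0.30 for gadd45aa (adjusted p = 0.205), 0.30 ± 0.13 for ccng1 (adjusted p = 0.240) and 0.35 ± 0.32 for mdm2. Without control 24 h replicate 3 both ccng2 changes were called, at -1.31 (adjusted p = 0.00955) and -1.52 (adjusted p = 0.0232). At 12 h the change of gadd45aa was 1.67 ± 0.30 (adjusted p = 5.30e-04). It ran from a difference of -0.53 in the uncut fin, which was not called, to 1.14 at 12 h. Gadd45aa was 1 of 6 members called, beside 9.08% of all probe sets called higher and 14.4% lower. With arrays centred on their median 55.8% of the called probe sets were higher, in place of 38.7%. The change of btg2 to 12 h was -0.90 ± 0.59 (adjusted p = 0.289), and was called without control 12 h replicate 3 (-1.47, adjusted p = 0.0412).

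The course after amputation was then followed within each arm. All comparisons with 0 h in an arm share the same 3 uncut arrays, and most of all tested probe sets changed in each of them, so the members' counts are near the background. At 12 h against 0 h, 4 of 6 members were called in memory fins, all higher, and 3 of 6 in control fins, 2 of them higher. Of all probe sets, 69.6% were called in that comparison in the memory arm and 68.5% in the control arm. Sums of cell markers differed between 0 and 12 h too. In control fins the osteoblast markers summed to 8025 to 8183 at 0 h and 318 to 429 at 12 h. The neutrophil and macrophage markers summed to 1040 to 1285 and then 1634 to 1723. The largest part of that sum at 12 h was mmp13a, with control group means of 6.72 at 0 h and 9.73 at 12 h. Of these 7 markers, 3 were called higher and 3 lower at 12 h in control fins (list median -0.38), so the sum does not stand for the list. In memory fins the osteoblast sums were 6704 to 8683 and then 328 to 627. The part of cell content in the members' courses was not tested.

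Mdm2 rose early in both arms. In memory fins it read 6.07, 6.20 and 5.92 at 0 h and 7.02, 7.31 and 7.92 at 12 h, and in control fins 5.93, 6.12 and 6.38 at 0 h and 7.42, 7.38 and 7.80 at 12 h. No 12 h array overlapped a 0 h array in either arm, as for 72.2% of all probe sets in memory fins and 67.5% in control fins. The rise was 1.35 ± 0.23 in memory fins (adjusted p = 2.07e-05) and 1.39 ± 0.23 in control fins (adjusted p = 1.45e-05). At 24 h it stood at 7.72, 7.70 and 7.37 in memory fins, against 6.99, 7.48 and 7.49 in control fins, a rise over 0 h of 1.54 ± 0.23 in memory fins and 1.18 ± 0.23 in control fins. Between 24 and 48 h it fell in both arms, by 0.81 ± 0.23 in memory fins (adjusted p = 0.0102) and by 1.22 ± 0.23 in control fins (adjusted p = 3.08e-04). Without the third memory 48 h array the memory fall was not called (adjusted p = 0.0845). At 48 h it was still above the uncut fin in the memory arm (0.72 ± 0.23, adjusted p = 0.00749), and was not called in the control arm (-0.04 ± 0.23, 95% interval -0.51 to 0.43). The difference between these 2 changes is the interaction given above, which was not called.

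Gadd45aa fell in both arms, later in the memory arm. In control fins it dropped by 1.91 ± 0.21 between 0 and 12 h (adjusted p = 7.5e-08) and its change from the uncut level was -1.69 ± 0.21 at both 24 and 48 h. In memory fins the change at 12 h was -0.24 ± 0.21 (adjusted p = 0.316), with overlapping arrays, and then -0.97 ± 0.21 at 24 h (adjusted p = 3.75e-04) and -1.38 ± 0.21 at 48 h. Between 12 and 24 h gadd45aa fell by 0.73 ± 0.21 in memory fins (adjusted p = 0.00925), while the step in control fins was 0.22 ± 0.21 (adjusted p = 0.518).

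The antiproliferative genes ccng2 and btg2 fell between 12 and 24 h in both arms. The size of that step was not tested between the arms. Probe set 1 of ccng2 read 12.02, 11.80 and 12.05 in memory fins at 0 h and 12.89, 12.58 and 12.43 at 12 h, and in control fins 11.93, 12.38 and 12.12 at 0 h and 12.21, 12.69 and 12.62 at 12 h. The 12 h rise was 0.67 ± 0.22 in memory fins (adjusted p = 0.00923), and the control change of 0.36 ± 0.22 was not called (adjusted p = 0.145). Between 12 and 24 h this probe set fell by 2.09 ± 0.22 in memory fins (adjusted p = 2.5e-07) and by 0.78 ± 0.22 in control fins (adjusted p = 0.0142). The fall from 24 to 48 h was called in memory fins (-0.70 ± 0.22, adjusted p = 0.0194), and the control change was -0.18 ± 0.22. By 48 h the change from the uncut fin was -2.12 ± 0.22 in memory fins and -0.61 ± 0.22 in control fins (adjusted p = 0.0176). Probe set 2 of ccng2 read 11.09, 10.77 and 10.99 in memory fins at 0 h, against 10.91, 11.32 and 11.33 in control fins, and 12.02, 11.77 and 11.49 in memory fins at 12 h, against 11.05, 12.05 and 11.50 in control fins. Its course was like that of probe set 1. The changes from 0 h in memory fins were 0.81 ± 0.30 at 12 h (adjusted p = 0.0195), -1.91 ± 0.30 at 24 h and -2.63 ± 0.30 at 48 h. In control fins they were 0.34 ± 0.30 (adjusted p = 0.313), -0.81 ± 0.30 (adjusted p = 0.0198) and -1.03 ± 0.30 (adjusted p = 0.00405). The step from 12 to 24 h was -2.72 ± 0.30 in memory fins and -1.15 ± 0.30 in control fins (adjusted p = 0.00865), and that from 24 to 48 h was not called in either arm (-0.72 ± 0.30 in memory fins, adjusted p = 0.0763, and -0.22 ± 0.30 in control fins).

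Some of these ccng2 calls rested on single arrays. For probe set 2 the memory rise at 12 h was not called on removal of memory 0 h replicate 2 or memory 12 h replicate 1, the control change at 24 h on removal of control 0 h replicate 2 or 3 or control 24 h replicate 3 or on only the groups compared (adjusted p = 0.0658), and the control step from 12 to 24 h on removal of control 12 h replicate 2 or control 24 h replicate 3. The rest concerns probe set 1. The control fall from 12 to 24 h had an adjusted p of 0.0617 on removal of control 12 h replicate 2 and of 0.114 on removal of control 24 h replicate 3, and the control change at 48 h one of 0.0840 on removal of control 0 h replicate 2. For the memory rise at 12 h it was 0.0525 on removal of memory 12 h replicate 1. For the memory fall from 24 to 48 h it was 0.111 on removal of memory 24 h replicate 3 and 0.0823 on removal of memory 48 h replicate 3.

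Btg2 read 10.02, 9.93 and 9.96 in memory fins at 0 h, against 9.76, 10.35 and 10.21 in control fins. At 12 h neither arm was called, with -0.66 ± 0.42 in memory fins (adjusted p = 0.164) and 0.24 ± 0.42 in control fins (adjusted p = 0.632). At 24 h its change from the uncut level was -2.60 ± 0.42 in memory fins (adjusted p = 1.3e-05) and -1.07 ± 0.42 in control fins (adjusted p = 0.0292). This control fall was not called on removal of control 0 h replicate 2 or 3 or control 24 h replicate 2 or 3, nor without the filter (adjusted p = 0.0545) or moderation (adjusted p = 0.0522). At 48 h the change was -2.28 ± 0.42 in memory fins and -0.29 ± 0.42 in control fins, the second not called (adjusted p = 0.544). From 12 to 24 h btg2 fell by 1.94 ± 0.42 in memory fins (adjusted p = 9.5e-04), and it fell by 1.30 ± 0.42 in control fins (adjusted p = 0.0324), the second not called on removal of control 12 h replicate 1 or 2 or control 24 h replicate 2 or 3, nor without the filter (adjusted p = 0.0600) or moderation (adjusted p = 0.0597). From 24 to 48 h the step was 0.32 ± 0.42 in memory fins and 0.77 ± 0.42 in control fins, neither called. In control fins the 48 h arrays (10.41, 9.63 and 9.40) thus overlapped the uncut ones, and in memory fins they did not. Of all probe sets 73.4% stood apart between 48 and 0 h in memory fins and 75% in control fins.

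Ccng1 rose by 0.33 ± 0.10 in memory fins (adjusted p = 0.00479) and by 0.28 ± 0.10 in control fins (adjusted p = 0.0121) at 12 h, and stood 0.52 ± 0.10 above the uncut level in memory fins and 0.45 ± 0.10 above it in control fins at 48 h. Its control change at 24 h was 0.20 ± 0.10 (adjusted p = 0.0664), and its control rise at 12 h was not called on removal of control 0 h replicate 1 (adjusted p = 0.0509) or 3 (adjusted p = 0.0587), with arrays centred on their median (0.20, adjusted p = 0.0728), or on only the groups compared (adjusted p = 0.0798). In the memory arm 2 members rose and 4 fell at 24 h and again at 48 h, which is all 6, beside 68.3% and 69.8% of all probe sets. In the control arm 1 rose and 3 fell at 24 h and again at 48 h, beside 68.4% and 69.9% of all probe sets.

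From 12 to 24 h 4 of 6 members fell in memory fins, beside 17.5% of all probe sets, and 3 of 6 in control fins, beside 8.89%. From 24 to 48 h 2 of 6 fell in memory fins, beside 13.1%, and 1 of 6 in control fins, beside 15.9%. Ccng1 was called in none of these steps, with 0.18 ± 0.10 from 12 to 24 h in memory fins (adjusted p = 0.142) and 0.25 ± 0.10 from 24 to 48 h in control fins (adjusted p = 0.0545).

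**Figure D3:**
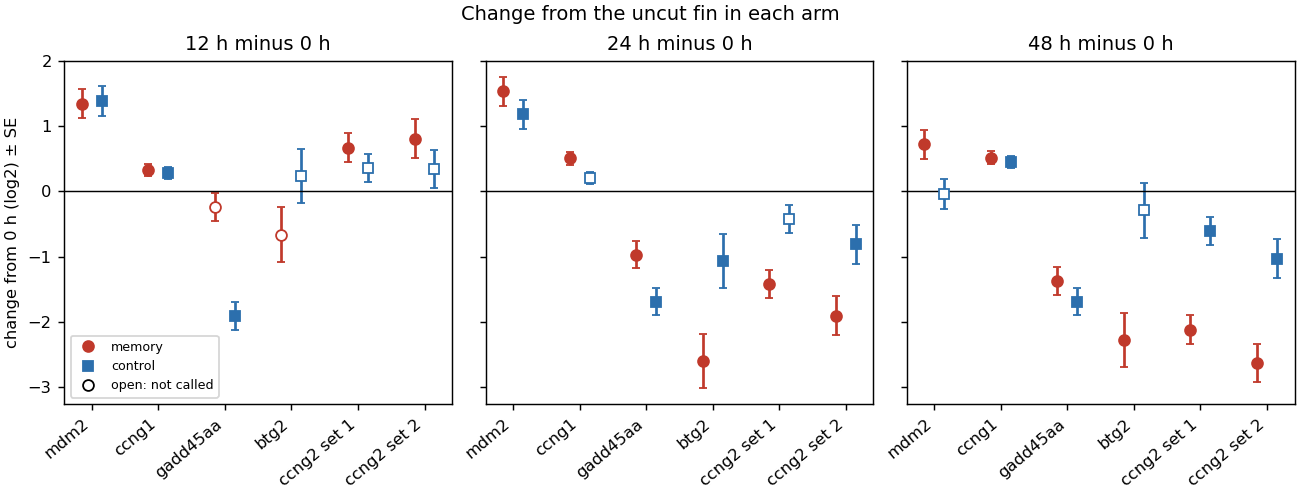
Change from the uncut fin (log2, y axis) of the 6 tested member probe sets (x axis) at 12, 24 and 48 h, memory left of control, with bars of ± SE from limma. Open points did not pass an adjusted p under 0.05. At 24 and 48 h the memory points of btg2 and ccng2 lie lower than the control points, and the gadd45aa points stand apart at 12 h.

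Ordered by level, btg2 was highest in control fins at 12 h (10.34) and lowest in memory fins at 48 h (7.69) and 24 h (7.37). The first 6 groups of this order overlapped with their neighbours. Arrays stood apart at the 1.35 between control fins at 24 h (9.04) and memory fins at 48 h, and at the 0.32 between the last groups. This 0.32 was not called (adjusted p = 0.627, limma), and the arrays of 48.1% of all probe sets stood apart between those groups. Groups that differ in both arm and time were not compared, so the 1.35 has no test and no such share. Both probe sets of ccng2 had memory fins at 12 h on top and memory fins at 24 h and 48 h at the bottom, with the arrays of these last groups apart from their neighbours in the order. The gap between control fins at 48 h and memory fins at 24 h likewise has no test and no such share. For mdm2 all neighbours overlapped, from 7.60 in memory fins at 24 h to 6.06 in memory fins at 0 h. Gadd45aa was highest in control fins at 0 h (7.22), with arrays apart from memory fins at 0 h, where the difference was not called. Its arrays also stood apart between memory fins at 12 h (6.45) and 24 h (5.72), a called fall. They did so between control fins (5.53) and memory fins (5.32) at 48 h too, a difference not called (adjusted p = 0.625, limma). Between the arms, 23.4% of all probe sets stood apart at 0 h, 42.8% at 12 h, 28.9% at 24 h and 31.3% at 48 h. Between memory fins at 12 and 24 h 56% stood apart. For ccng1 all neighbours overlapped.

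Over the 8 group means, which share arrays and time, btg2 and ccng2 followed each other (Pearson r = 0.852, n = 8 groups), while gadd45aa and ccng1 ran opposite (r = -0.818). The other 8 pairs of genes lay between -0.50 and 0.46, with -0.01 for ccng2 and mdm2. Among 3745 other genes whose group means spanned at least 1 log2 unit, the 5 most like btg2 were nfkbiab (0.981), which encodes an inhibitor of NF-kappaB, fgfbp1a (0.948), klf4 (0.946), pdcd4b (0.946) and ccn1 (0.938). Those most like ccng2 were tlcd1 (0.975), the salt-inducible kinase gene sik1 (0.963), stard14 (0.931), btbd9 (0.920) and gcnt4a (0.915). For mdm2 they were gdpd3a (0.982), trpt1 (0.979), the AP-1 factor gene fosl1b (0.978), the enolase gene eno1a (0.974) and rbm28 (0.960). For gadd45aa they were the Notch ligand gene jag1b (0.979), cyba (0.975), the antioxidant regulator nfe2l2a (0.970), bhlhe41 (0.961) and maff (0.960), and for ccng1 poldip2 (0.984), pard6gb (0.976), robo1 (0.972), gpd1l (0.972) and fthl30 (0.971).

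The other genes of the pathway were read from lists of known p53 regulators, p53 targets and cell cycle brakes. These lists too were chosen with earlier results of these data known, so their counts are no test of a set. The list of p53 targets of arrest and repair also holds family relatives, such as the other gadd45 genes and sesn3. A place on a list does not show that p53 controls the gene in these fins, which was not tested. At 48 h the other brakes of the Btg, Tob and growth arrest list had 1 of 12 measured genes higher and 3 lower in memory fins. Of all probe sets 2.75% were higher and 2.94% lower. The list's median difference was -0.31, beside 0.02 over all probe sets. Its largest difference was in klf4, a transcription factor of differentiated epidermis. Klf4 read 3.31, 3.75 and 4.56 in the 3 memory arrays in rising order, against 5.93, 6.31 and 7.09 in control fins. The difference was -2.57 ± 0.46 (adjusted p = 0.00314). The lower memory arrays were under the filter's log2 signal of 4, where signals are compressed, so the size of this difference is uncertain. Tob1b, a relative of btg2, was lower in memory fins too (-1.003 ± 0.28, adjusted p = 0.0382). The third lower call was cnot7, a deadenylase of the complex that Btg proteins bind. It was under a log2 signal of 4 on all memory arrays and passed the filter only through control arrays, so its call is no support for a difference. Ndrg1a was higher in memory fins (0.81 ± 0.17, adjusted p = 0.00975).

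At 24 h this list had 1 gene higher and 4 lower in memory fins, beside 1.90% of all probe sets lower. Of the 343 probe sets called in either direction, 43.7% were higher. The higher gene was ndrg1a, with group means of 7.79 in memory fins and 7.05 in control fins. The lower genes were klf4 (-2.09 ± 0.46, adjusted p = 0.0176), tob1b (-1.23 ± 0.28, adjusted p = 0.0196), tob1a (-0.82 ± 0.20, adjusted p = 0.0298) and btg3 (-0.54 ± 0.10, adjusted p = 0.00577). For klf4 all memory arrays lay between 3.25 and 3.72, under the filter's log2 signal of 4, so the size of its difference is uncertain. For tob1b the memory arrays read 8.58, 8.59 and 8.83 and the control arrays 9.38, 10.08 and 10.23, with no overlap. The difference of tob1b between the arms changed from 0 h by -1.94 ± 0.39 at 24 h (adjusted p = 0.0151) and by -1.72 ± 0.39 at 48 h (adjusted p = 0.0176), and that of klf4 by -2.88 ± 0.66 at 48 h (adjusted p = 0.0173). In the uncut fin tob1b read 10.51 to 10.70 in memory fins, against 9.32 to 10.25 in control fins, a difference not called. Both changes of tob1b include this gap.

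Among the 18 measured genes listed as p53 targets of arrest and repair, 0 were higher and 4 were lower in memory fins at 48 h. Of all probe sets 2.75% were higher and 2.94% lower. The list's median difference was -0.06. The lower ones were the polo-like kinase genes plk2b (-1.74 ± 0.42, adjusted p = 0.0198) and plk3 (-1.20 ± 0.27, adjusted p = 0.0121) and the gadd45aa relatives gadd45bb (-1.01 ± 0.24, adjusted p = 0.0152) and gadd45ba (-0.82 ± 0.19, adjusted p = 0.0137). The change of the arms' difference from 0 h was -2.31 ± 0.60 for plk2b (adjusted p = 0.0310) and -1.46 ± 0.38 for plk3 (adjusted p = 0.0310). Group means in the uncut fin were 4.88 in memory fins and 4.30 in control fins for plk2b, and 10.01 in memory fins and 9.75 in control fins for plk3. At 48 h plk2b read 4.60 to 4.95 in memory fins. These plk2b signals are near the filter's log2 signal of 4, so the sizes of its difference and change are uncertain. Plk3 read 9.05, 9.15 and 9.38 in memory fins, against 10.19, 10.41 and 10.59 in control fins, so the groups did not overlap. None of the 18 was called at 24 h by limma and 6 had an unadjusted p under 0.05, where plk3 came closest of the 4 genes just named (-0.91 ± 0.27, adjusted p = 0.0623).

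Of 10 measured p53 regulators, 3 were higher in memory fins at 48 h and 0 lower, beside 2.75% and 2.94% of all probe sets. The higher ones were the p53 relative tp63 (0.50 ± 0.13, adjusted p = 0.0273), the ubiquitin ligase gene rchy1 (0.45 ± 0.13, adjusted p = 0.0450) and dkc1, which encodes the pseudouridine synthase dyskerin (0.59 ± 0.12, adjusted p = 0.00738). Tp63 is also the epidermis marker called higher at 48 h above, and the part of epidermal cells in its difference was not tested. The Mdm2 partner mdm4 was not called between the arms at any time, with -0.17 ± 0.11 at 48 h, and its level stayed between 7.59 and 8.07 in all group means. At 48 h 1 of 14 cell death targets was lower, the survival gene mcl1b (-0.44 ± 0.12, adjusted p = 0.0304), as was 1 of 10 damage checkpoint genes, mdc1 (-0.38 ± 0.11, adjusted p = 0.0484). None of 5 Cdk inhibitors and pocket proteins was called by limma at 48 h, and 0 had an unadjusted p under 0.05. Of 12 cyclins and kinases of G1 and S phase 1 was called, ccne1, higher by 0.59 ± 0.15 (adjusted p = 0.0254). The single calls of 14, 10 and 12 genes stand beside the same shares of all probe sets, and no list was tested as a set.

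**Figure D4:**
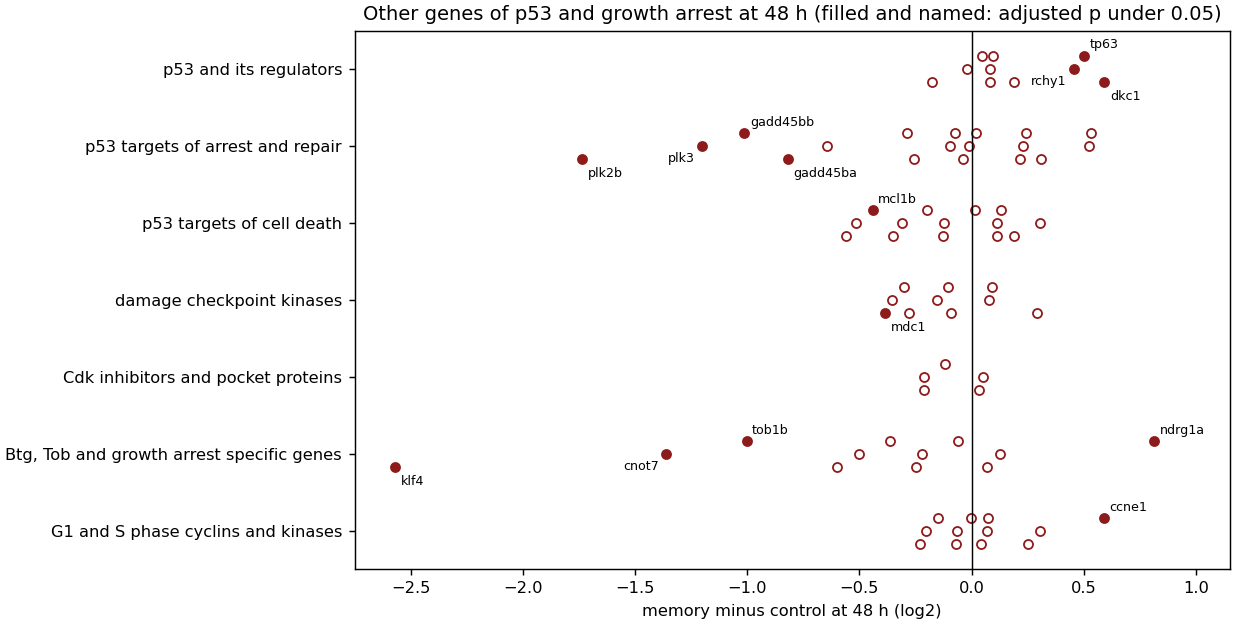
Difference between memory and control fins at 48 h (log2, x axis) of the other measured genes of the pathway, 1 row for each gene list (y axis) and 1 point for each gene, spread vertically for legibility. Filled and named points passed an adjusted p under 0.05. Klf4, plk2b, cnot7, plk3, gadd45bb and tob1b lie furthest to the left, and ndrg1a furthest to the right.

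At 12 h the picture of the pathway differed from that of the members. Of the 18 targets of arrest and repair, 1 was higher and 11 were lower in memory fins (list median -0.55, beside -0.02 over all probe sets). Of all probe sets 15.5% were higher and 20.7% lower, a direction that turned with arrays centred on their median. The lower genes of this list included tigarb (-1.15 ± 0.13, adjusted p = 1.22e-06), a regulator of glycolysis, and the sestrin gene sesn3 (-1.13 ± 0.22, adjusted p = 4.96e-04). For sesn3 the memory arrays read 3.83 to 4.38 and for tigarb 4.71 to 4.77. Both are near the filter's log2 signal of 4, so the sizes of these differences are uncertain. Others were the damage binding protein gene ddb2 (-1.01 ± 0.14, adjusted p = 1.18e-05) and gadd45bb (-0.96 ± 0.24, adjusted p = 0.00304). Gadd45bb and gadd45ab (-0.65 ± 0.16, adjusted p = 0.00345) were thus lower at the time when gadd45aa was higher.

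Damage checkpoint genes were also lower at 12 h, 7 of 10, with prkdc at -1.31 ± 0.20 (adjusted p = 4.45e-05), chek1 at -1.02 ± 0.19 (adjusted p = 2.54e-04), chek2 at -0.94 ± 0.12 (adjusted p = 5.55e-06) and mre11a at -0.71 ± 0.16 (adjusted p = 0.00138). So were 7 of 12 cyclins, kinases and replication genes, among them ccna2 (-1.21 ± 0.19, adjusted p = 4.19e-05) and rrm1 (-0.96 ± 0.11, adjusted p = 2.12e-06). Of the 14 cell death targets 2 were higher and 4 lower, near the 15.5% and 20.7% of all probe sets, with siva1 at -1.10 ± 0.21 (adjusted p = 4.36e-04) and the survival gene bcl2l1 at 0.66 ± 0.13 (adjusted p = 5.30e-04). The stress gene ndrg1a was higher by 2.32 ± 0.17 (adjusted p = 8.80e-09).

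Against the uncut fin, 10 of the 18 targets of arrest and repair rose and 4 fell at 12 h in memory fins, and 12 rose and 3 fell in control fins. In either direction these 14 and 15 of 18 lie near the 69.6% and 68.5% of all probe sets called. By direction, 51.2% of all called probe sets were higher in memory fins and 52.6% in control fins. The list's median change was 0.49 in memory fins and 0.95 in control fins, beside 0.02 over all probe sets in each arm. The gadd45 genes went different ways. Gadd45bb rose by 3.25 in memory fins and by 4.23 in control fins at 12 h, and gadd45ba fell by 1.51 in memory fins and by 1.28 in control fins, as gadd45aa did in control fins. Plk2b rose by 4.16 in memory fins and by 3.77 in control fins at 12 h, and at 48 h its change was -0.10 and not called in memory fins and 2.22 in control fins. Its group means at 0 h were 4.88 in memory fins and 4.30 in control fins. These are near the filter's log2 signal of 4, so the sizes of its changes are uncertain. By 48 h 2 of 12 growth arrest genes had risen and 8 had fallen in memory fins, against 4 risen and 5 fallen in control fins, while 10 of 12 cyclins and kinases had risen in memory fins and 8 of 12 in control fins, with none falling in either arm. Of all probe sets 69.8% were called in memory fins and 69.9% in control fins at 48 h, and these list counts were not tested between the arms.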

How the data were processed

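Biotin-labelled RNA (6 ug, per the labels' protocols) was measured on 24 Affymetrix arrays. The deposited values are log2 signals that the authors computed by GCRMA, with Partek also named in the submitters' processing notes. Their versions are not given in the sources used here. GCRMA corrects background from probe sequence and normalises between arrays, so low signals are compressed and overall shifts between arrays are reduced. Array medians over the tested probe sets still ran from 6.68 to 6.80.

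Groups came from the labels. From the 15617 probe sets the fit left out 115 array controls and 5362 that reached a log2 value of 4 on fewer than 3 arrays. Symbols came from the platform annotation. A model with 1 mean per group was fitted with limma 3.58.1 in R 4.3.3 (eBayes without trend, 16 residual degrees of freedom) for 18 comparisons, with Benjamini-Hochberg adjustment over 10140 probe sets within each. The method was tested on simulated data. Members and gene lists were chosen with earlier results of these data known. All member probe sets, mdm4 and up to 4 called genes of a list by size of change were named. A few other called genes of the lists were named too. Likeness was Pearson's r over 8 group means, for genes with 1 symbol. With a list gene on several probe sets, that with the highest mean was used. Deviations of same-numbered arrays correlated at -0.225 to 0.37, with 19 of 84 pairs over 0.1. All 3 pairs were over 0.1 in 2 of 28 pairs of groups, control 12 h with control 24 h and with control 48 h. The other group pairs were taken as not paired, and the main fit used no pairing for any group.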

Additional observations from a re-analysis of the deposited data

Results flagged for a closer look

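Differences between memory and control fins that changed from the uncut fin by the test of the change itself were found for gadd45aa and for both probe sets of ccng2. The difference of gadd45aa was 1.67 ± 0.30 higher at 12 h than at 0 h. For ccng2 the difference at 48 h was below that at 0 h, with a change of -1.51 ± 0.31 at probe set 1 and of -1.60 ± 0.42 at probe set 2.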

How the results depend on the processing

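The 18 comparisons were repeated without the filter on low signals, with a stricter filter, with an intensity trend and robust estimation, without moderation, with arrays centred on their median, with quantile normalisation once more, with the replicate number as a block, on only the groups compared, and without each array in turn. The count of called members at 48 h and that averaged over times stayed within 1.5 times under all of these. In the change of the memory effect from 0 h to 48 h it was 1 in place of 2 without the filter and without moderation, as probe set 2 of ccng2 was lost. Between control fins at 48 and 24 h it was 2 in place of 1 with no filter, with the stricter filter, with trend and robust estimation, without moderation and with the replicate block, as ccng1 was added. Between memory and control fins at 12 h it was 2 in place of 1 with quantile normalisation and with the replicate block, as btg2 was added (adjusted p = 0.0483 with normalisation and 0.0223 with the block). The block also brought the change of btg2 to 48 h past the threshold (adjusted p = 0.0209), and 41 of 84 same-numbered pairs correlated best with their own number. For control fins at 24 against 12 h, where all 3 same-numbered pairs correlated over 0.1, the block changed no member's call. The block is 1 effect shared by all 8 groups, so it cannot take out a pairing of the control arm alone. A fit paired within that arm was not run. On only the groups compared, the member count was 1 in place of 3 for memory against control fins at 24 h, 0 in place of 3 for control fins at 24 against 12 h, 4 in place of 2 for memory fins at 48 against 24 h and 1 in place of 0 for the change to 24 h. Over all probe sets that fit, which has fewer samples, called 81 in place of 560 at 0 h, 2192 in place of 3666 at 12 h, 198 in place of 343 at 24 h, 690 in place of 2041 for control fins at 24 against 12 h and 1459 in place of 2378 for the change to 12 h. Signs turned only in values that were not called: ccng1 in memory fins at 48 against 24 h with centring (-0.011), ccng1 in the change to 12 h with quantile normalisation (-0.076) and mdm2 in the same change with centring (0.060) and quantile normalisation (0.013). The cause was not tested.

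With 1 array left out, the member counts ran from 1 to 2 for the change to 12 h, from 0 to 2 for that to 24 h and from 1 to 3 for that to 48 h. They ran from 1 to 2 at 12 h and from 0 to 3 at 24 h between memory and control fins, from 0 to 3 in memory fins at 48 against 24 h, and, in control fins, from 2 to 6 at 24 against 0 h, from 0 to 3 at 24 against 12 h and from 1 to 2 at 48 against 24 h. Over all probe sets the counts ran from 43 to 530 at 24 h and from 178 to 726 at 48 h between the arms, from 88 to 387 for the change to 24 h, from 191 to 585 for that to 48 h and from 1327 to 2068 in control fins at 24 against 12 h. Signs turned in values that were not called. Between memory and control fins these were mdm2 at 0 h (-0.18 to 0.039) and 12 h (-0.37 to 0.079), ccng2 at 12 h (-0.024 to 0.23 and -0.011 to 0.49) and gadd45aa at 24 h (-0.059 to 0.35). In the changes from 0 h they were mdm2 to 12 h (-0.29 to 0.16) and ccng1 to 12 h (-0.049 to 0.093) and 48 h (-0.020 to 0.12). In memory fins they were mdm2 at 24 against 12 h (-0.012 to 0.44) and ccng1 at 48 against 24 h (-0.040 to 0.053). In control fins they were btg2 at 12 h (-0.11 to 0.81) and mdm2 at 48 h (-0.15 to 0.085) against 0 h, gadd45aa at 24 against 12 h (-0.021 to 0.52) and, at 48 against 24 h, gadd45aa (-0.25 to 0.15) and ccng2 (-0.50 to 0.086 and -0.64 to 0.12). Precision is limited by 3 arrays in each group.

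The share of called probe sets that were higher moved by over 10 points in 4 cases. It was 42.7% in place of 53.6% for control fins at 48 against 0 h without the filter. With centring it was 52.3% in place of 65.5% at 0 h and 53.3% in place of 42.8% at 12 h between the arms, and 55.8% in place of 38.7% for the change to 12 h. Centring moved the median of all probe sets by up to 0.10.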
